A study of Mus musculus with 8 samples.

Results

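Among the 21950 genes counted in d6PGCLCs and E12.5 PGCs, 10 encode histone lysine demethylases outside the *Kdm5* family and are described here: *Kdm1a*, *Kdm1b*, *Kdm2a*, *Kdm3a*, *Kdm3b*, *Kdm4a*, *Kdm4b*, *Kdm4c*, *Kdm6a* and *Kdm6b*. They were chosen by name, and all 10 were found in the table by their Entrez identifier. d6PGCLCs are primordial germ cell-like cells derived in vitro from a female mouse BVSC-iPSC line that carries the reporters Blimp1-Venus and Stella-ECFP, collected at day 8 of culture, 6 days after their induction from epiblast-like cells with BMP4, SCF, LIF and EGF. The protocol sorted such cells on both reporters or on SSEA1 and integrin β3, and the sample labels give the reporters. All 4 libraries came from this single line. E12.5 PGCs were pooled from female gonads of C57BL/6J embryos and sorted on SSEA1 and integrin β3. The reporters, the gate as labelled, the culture and the genetic source thus differ between the groups together with the cell type. Their parts in a difference cannot be told apart. Each group held 4 pools from independent experiments, each sequenced as 1 poly(A) library with between 7991437 and 12024841 counted reads, so p-values measure the spread between these pools.

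Histone lysine demethylases remove methyl groups from lysines of the histone tails and work by either of a pair of chemistries. KDM1A and KDM1B are flavin-dependent amine oxidases that act on mono- and dimethylated H3K4, whereas the JmjC enzymes of the KDM2, KDM3, KDM4 and KDM6 families use iron, oxygen and 2-oxoglutarate, and those of the KDM4 and KDM6 families can also remove trimethylation. Germ cell precursors rebuild their chromatin on a large scale, with loss of H3K9 dimethylation and gain of H3K27 trimethylation known from the mouse embryo.

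The starts of the genes were looked at first, because several JmjC enzymes need oxygen and *Kdm3a* is a known target of hypoxia-inducible factors. RefSeq promoter windows of GRCm38.p6, from 250 bases before to 50 bases after a start, were at hand for 6 of the 10 genes, as 9 windows. *Kdm2a*, *Kdm3b*, *Kdm4b* and *Kdm6b* had no window in that table. The core of the hypoxia response element was searched as ACGTG or GCGTG on both strands, so that each CACGTG counts as 2 overlapping matches, 1 on each strand. It was present in 5 of the 9 windows and in 43.8% of the 32851 windows of all genes. The 4 sequences below are shown because they belong to a gene that fell (*Kdm1b*), a gene that did not pass the test (*Kdm3a*) and 2 genes that rose (*Kdm4c*, *Kdm6a*) in d6PGCLCs. They are the windows chr13:47043249-47043548 (plus strand), chr6:71632868-71633167 (minus strand, the first of 3 starts), chr4:74251629-74251928 (plus strand, the second of 2 starts) and chrX:18162325-18162624 (plus strand), each written 5′ to 3′ with the matches in capitals.
Kdm1b: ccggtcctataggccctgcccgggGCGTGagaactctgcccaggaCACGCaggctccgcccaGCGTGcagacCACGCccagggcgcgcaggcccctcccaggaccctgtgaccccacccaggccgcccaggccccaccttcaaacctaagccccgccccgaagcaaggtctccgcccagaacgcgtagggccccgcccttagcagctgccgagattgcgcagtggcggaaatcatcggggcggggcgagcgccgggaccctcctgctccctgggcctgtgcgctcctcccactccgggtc
Kdm3a: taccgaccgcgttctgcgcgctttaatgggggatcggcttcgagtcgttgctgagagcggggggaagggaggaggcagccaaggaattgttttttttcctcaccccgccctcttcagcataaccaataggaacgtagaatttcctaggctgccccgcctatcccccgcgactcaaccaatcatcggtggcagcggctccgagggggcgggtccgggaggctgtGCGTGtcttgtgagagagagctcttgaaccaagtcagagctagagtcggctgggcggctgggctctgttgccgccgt
Kdm4c: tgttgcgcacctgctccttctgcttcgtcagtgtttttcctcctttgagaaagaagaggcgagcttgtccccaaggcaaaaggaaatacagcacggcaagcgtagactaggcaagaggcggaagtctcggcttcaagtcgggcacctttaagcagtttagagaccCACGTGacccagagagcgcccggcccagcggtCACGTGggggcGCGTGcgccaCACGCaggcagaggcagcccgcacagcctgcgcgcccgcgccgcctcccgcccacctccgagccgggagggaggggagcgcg
Kdm6a: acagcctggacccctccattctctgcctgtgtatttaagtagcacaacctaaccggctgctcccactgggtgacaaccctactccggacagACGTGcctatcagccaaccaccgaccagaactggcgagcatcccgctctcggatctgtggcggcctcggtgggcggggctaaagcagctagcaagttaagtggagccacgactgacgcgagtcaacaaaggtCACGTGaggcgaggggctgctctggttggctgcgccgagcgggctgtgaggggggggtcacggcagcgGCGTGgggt
The *Kdm1b* window held 4 matches, all to GCGTG, and the *Kdm3a* window held 1. The *Kdm4c* window held 6 matches, of which 2 CACGTG hexamers gave 4, and the *Kdm6a* window held 4. The starts of *Kdm3a* and *Kdm4c* that are not shown held 0 matches. *Kdm1a*, which did not pass the test, had 3 matches in its only window, and *Kdm4a*, which rose, had 0. The letters therefore occurred in genes of every direction. Of the 9 windows, 7 held between 13 and 40 CpG dinucleotides, against a median of 7 over the windows of all genes. The remaining 2 held none, the third start of *Kdm3a* and the first of *Kdm4c*. Both searched cores contain a CpG, so the 43.8% over all windows is not a background of like CpG content.

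Among the 10 genes, those for demethylases of H3K9 and H3K27, except *Kdm3a*, were higher in d6PGCLCs than in E12.5 PGCs, whereas *Kdm1b* and *Kdm2a* were lower. With edgeR's quasi-likelihood test, which compares counts between the groups, and p-values adjusted over all genes after Benjamini and Hochberg (threshold 0.05), 6 of the 10 genes rose (*Kdm3b*, *Kdm4a*, *Kdm4b*, *Kdm4c*, *Kdm6a* and *Kdm6b*), 2 fell (*Kdm1b* and *Kdm2a*) and 2 did not pass (*Kdm1a* and *Kdm3a*). Over all counted genes, 16.1% rose and 15.4% fell. Of the 11487 genes with a mean of at least 1 CPM (counts scaled to the library size), to which all 10 belong, 28.1% rose and 25.6% fell. The median log2 fold change, given throughout as d6PGCLC over E12.5 PGC, was 0.49 over the 10 genes and 0.01 over the 11487 genes. Among the 6681 of these genes with a counted length in the range of the 10 genes, from 2412 to 8072 bp, the median was also 0.01. The changes were small for most. Only *Kdm6b* and *Kdm4b* both passed the test and reached an absolute log2 fold change of 1. That is 2 of 10, against 21.6% of the 11487 genes that met both conditions. Between the groups, library values showed no overlap for 8 of the 10 genes, the same 8 that passed the test, and for 51.1% of the 11487 genes. For each of the 8, the two-sided exact permutation test on CPM gave p = 0.0286, the smallest possible with 4 against 4.

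**Figure D1:**
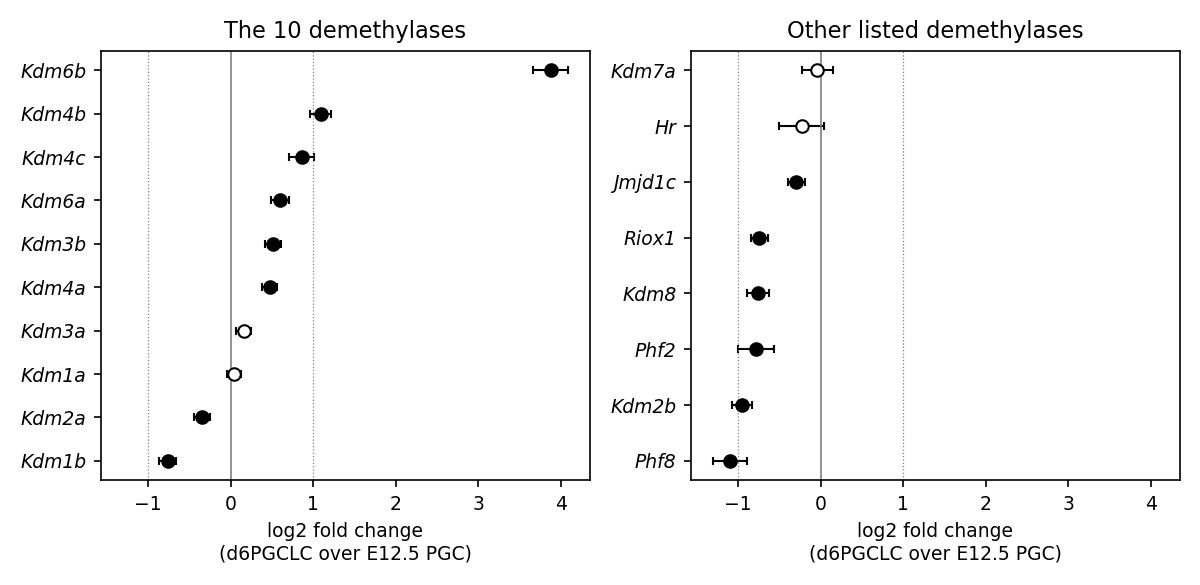
Log2 fold change (d6PGCLC over E12.5 PGC) of the 10 demethylases and of other histone demethylases of the list, with bars of 1 standard error, filled where the adjusted p is at most 0.05 and with dotted lines at -1 and 1. *Kdm6b* stands alone at 3.87, 5 other called genes lie between 0.48 and 1.09, and 8 genes of both groups lie below 0 with a passed test.

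Levels of different genes were compared only as RPKM, reads per kilobase of counted exon scaled to the library size. In d6PGCLCs *Kdm1a* had the highest level, 104 ± 7.93 RPKM (SD, n = 4, as for all values below), followed by *Kdm3b* and *Kdm3a* at 70.3 ± 8.99 and 54.0 ± 6.49 RPKM. *Kdm6a*, *Kdm4a*, *Kdm2a* and *Kdm1b* followed between 31.5 and 21.8 RPKM, and the values of neighbours in that order overlapped. *Kdm4b* and *Kdm4c* lay at 13.9 and 11.5 RPKM with overlapping values, and *Kdm6b* was lowest at 7.39 ± 1.76 RPKM. In E12.5 PGCs the order differed in the middle: *Kdm1b* and *Kdm2a*, at 37.0 and 32.6 RPKM with overlapping values, came before *Kdm6a* and *Kdm4a* at 20.8 and 19.7 RPKM. *Kdm3b* and *Kdm3a*, at 49.3 and 48.5 RPKM, could not be ordered there. *Kdm6b* was again lowest, between 0.460 and 0.537 RPKM in the 4 libraries. The level of *Kdm1a* exceeded that of 94.0% of the 11487 genes in d6PGCLCs and 93.9% in E12.5 PGCs, whereas *Kdm6b* went from above 6.24% of them in E12.5 PGCs to above 40.5% in d6PGCLCs. Levels per length rest on 1 isoform chosen at random for each gene, and the counted length was shorter than the longest coding transcript for *Kdm4c* (2412 against 4196 bp), *Kdm4b* (3460 against 4577 bp), *Kdm6b* (5491 against 6654 bp), *Kdm1b* (4140 against 4987 bp), *Kdm2a* (7671 against 8578 bp) and *Kdm6a* (5862 against 5935 bp). It was longer for *Kdm1a* (3775 against 3028 bp), *Kdm3a* (5897 against 4853 bp), *Kdm3b* (8072 against 6363 bp) and *Kdm4a* (5496 against 4663 bp), and such differences bear on the order of the levels and on the shares of gene pairs.

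**Figure D2:**
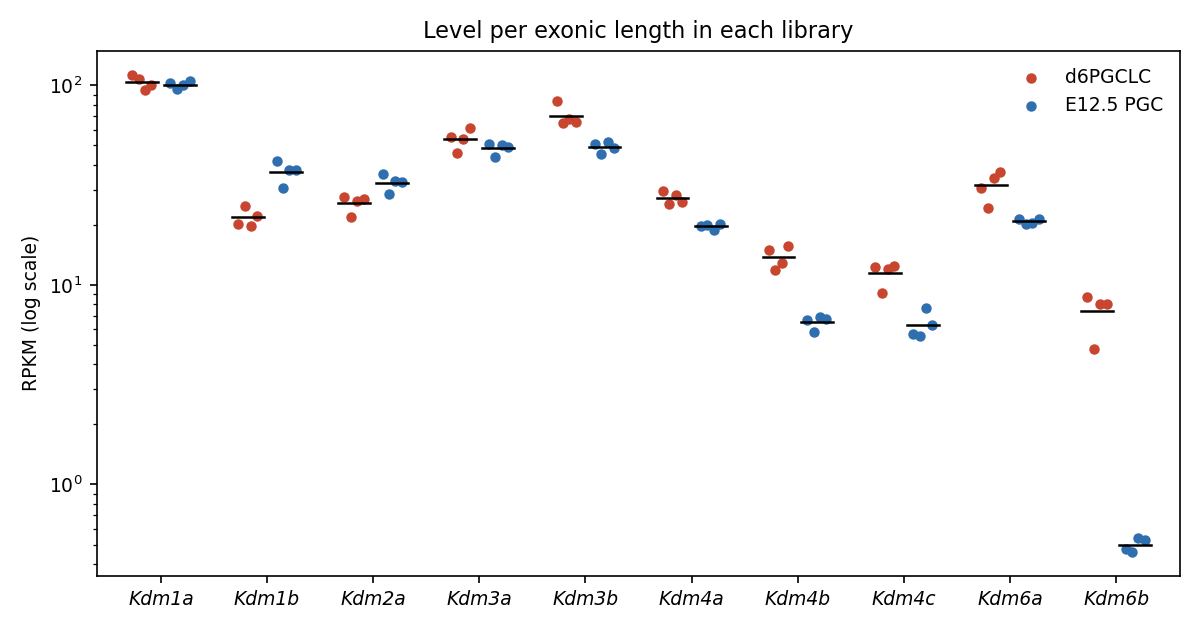
RPKM (log axis) of the 10 demethylases in each of the 4 d6PGCLC and 4 E12.5 PGC libraries, one point per library, with a line at the group mean. *Kdm1a* is highest in both groups, near 100 RPKM, and *Kdm6b* is the only gene below 1 RPKM in E12.5 PGCs.

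Of the 10 genes, the H3K27 demethylase gene *Kdm6b* differed most (Entrez 216850, chr11:69398508-69420367 in GRCm38). It encodes JMJD3, an enzyme known to be induced by developmental and inflammatory signals. Its level was 48.0, 26.4, 43.9 and 44.1 CPM in d6PGCLC replicates 1 to 4, and 2.62, 2.53, 2.95 and 2.89 CPM in E12.5 PGC replicates 1 to 4. All d6PGCLC libraries were thus far above all E12.5 PGC libraries, with d6PGCLC replicate 2 the lowest of its group. The raw counts behind these values were 259 to 529 in d6PGCLCs and only 21 to 32 in E12.5 PGCs, all above the 3 counts taken as the limit of detection. The log2 fold change was 3.87 ± 0.21 (SE; edgeR quasi-likelihood test, adjusted p = 4.27e-12), or 14.6-fold, and among the 11487 genes *Kdm6b* had the 62nd largest rise in log2 fold change. *Kdm6a* (Entrez 22289, chrX:18160862-18279936), which encodes UTX, a subunit of the KMT2C and KMT2D complexes, was at 179.7, 142, 202 and 216 CPM in d6PGCLCs and at 125, 119, 119.6 and 125 CPM in E12.5 PGCs. The E12.5 PGC libraries lay within a narrow band below every d6PGCLC library, while the d6PGCLC libraries varied more, with a coefficient of variation of 17.5%. Its log2 fold change was 0.60 ± 0.11 (SE; edgeR quasi-likelihood test, adjusted p = 0.000165) and ranged from 0.51 to 0.70 with each library left out in turn. Among 431 X-linked genes with a mean of at least 1 CPM the median log2 fold change was -0.07, with 29.5% higher and 33.2% lower. In these pools, fewer cells with a transcript and fewer transcripts per cell cannot be told apart.

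Because *Kdm6b* rose more than *Kdm6a*, the make-up of the pair changed. Of the summed RPKM of both genes, *Kdm6b* made up 18.9 ± 2.40% in d6PGCLCs, with a range from 16.6 to 22.2%, and 2.34 ± 0.178% in E12.5 PGCs, with a range from 2.18 to 2.57%. *Kdm6a* therefore supplied most of the transcripts of the pair in both groups. Their sum was 38.9 ± 7.01 RPKM in d6PGCLCs, between 29.0 and 44.9, and 21.3 ± 0.591 RPKM in E12.5 PGCs, between 20.7 and 21.9, with no overlap. *Uty*, the Y-linked relative of *Kdm6a*, had no count in 7 libraries, which allows up to between 0.249 and 0.375 CPM for 3 counts, and 8 counts in E12.5 PGC replicate 4. That library also held all 98 counts of the 6 Y-linked genes of the list, although its gonads are labelled female, and *Kdm5d* had 3 of them. With this library left out, the calls of all 8 genes were kept.

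The KDM4 enzymes remove tri- and dimethylation of H3K9 and H3K36, and all 3 counted genes rose. *Kdm4b* (Entrez 193796, chr17:56325970-56403774) was at 51.9, 41.0, 44.8 and 54.2 CPM in d6PGCLCs and at 23.0, 20.1, 23.8 and 23.3 CPM in E12.5 PGCs. Replicate 2 was lowest in each group, and the lowest d6PGCLC library was well above the highest E12.5 PGC library. Its log2 fold change was 1.09 ± 0.13 (SE; edgeR quasi-likelihood test, adjusted p = 7.73e-07), a 2.13-fold difference that in log2 lay from 1.02 to 1.15 when single libraries were omitted. *Kdm4c* (Entrez 76804, chr4:74242497-74405864) was at 29.6, 21.9, 29.1 and 30.1 CPM in d6PGCLCs and at 13.7, 13.4, 18.4 and 15.3 CPM in E12.5 PGCs. The nearest libraries, d6PGCLC replicate 2 and E12.5 PGC replicate 3, were still apart. The log2 fold change was 0.86 ± 0.16 (SE; edgeR quasi-likelihood test, adjusted p = 0.000142). *Kdm4a* (Entrez 230674, chr4:118136957-118180090) was at 163, 140.3, 155 and 144 CPM in d6PGCLCs and at 108, 110.3, 104 and 111 CPM in E12.5 PGCs. Both groups were tight, and the log2 fold change of 0.48 ± 0.09 (SE; edgeR quasi-likelihood test, adjusted p = 0.000229) was the smallest of the 6 genes that rose. Per length, *Kdm4a* led the family in both groups.

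*Kdm4b* gained on *Kdm4a* in d6PGCLCs. Its share of the summed RPKM of the pair was 33.6 ± 2.77% in d6PGCLCs, from 31.5 to 37.5%, and 24.8 ± 1.77% in E12.5 PGCs, from 22.5 to 26.7%. The share of *Kdm4c* in the sum with *Kdm4a* ranged from 26.2 to 32.3% in d6PGCLCs and from 21.6 to 28.8% in E12.5 PGCs, and there the groups overlapped. The summed level of the 3 genes was 52.7 ± 4.45 RPKM in d6PGCLCs and 32.5 ± 0.943 RPKM in E12.5 PGCs, without overlap. *Kdm4d* was not analysed here.

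**Figure D3:**
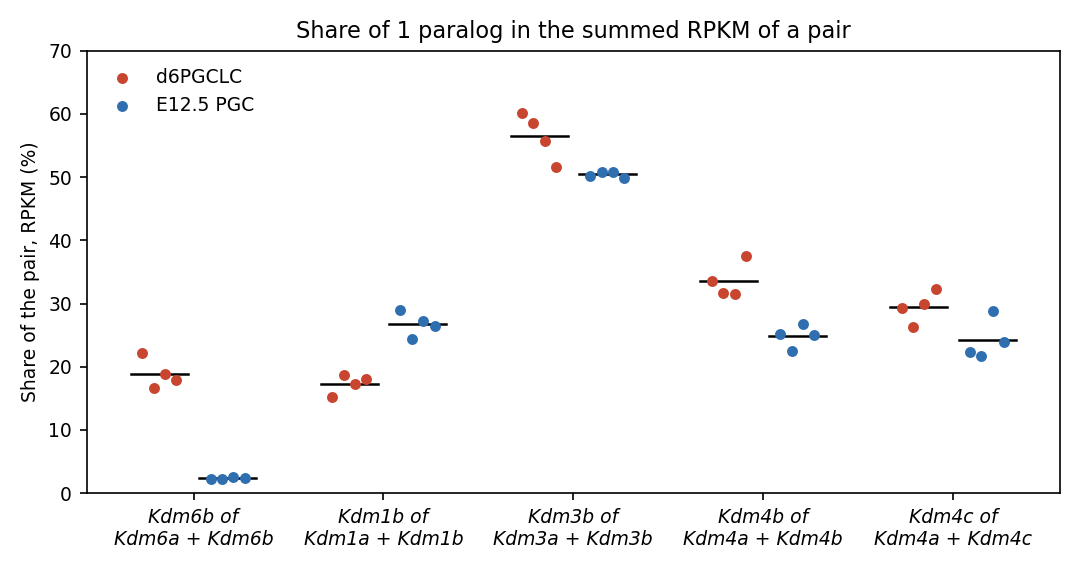
Share (%) of the first-named gene in the summed RPKM of a pair of related demethylases, one point per library of each group with a line at the mean. The groups are apart for *Kdm6b* with *Kdm6a*, *Kdm1b* with *Kdm1a*, *Kdm3b* with *Kdm3a* and *Kdm4b* with *Kdm4a*, while they overlap for *Kdm4c* with *Kdm4a*.

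Of the KDM3 enzymes, which remove mono- and dimethylation of H3K9, *Kdm3b* rose and *Kdm3a* did not pass the test. *Kdm3b* (Entrez 277250, chr18:34777008-34839370) was at 676, 522, 546 and 528 CPM in d6PGCLCs and at 411, 366, 421 and 394 CPM in E12.5 PGCs. The first d6PGCLC library stood above the other 3, which themselves were all above the E12.5 PGC libraries. The log2 fold change was 0.51 ± 0.09 (SE; edgeR quasi-likelihood test, adjusted p = 0.000156), and it was 0.42 at the lowest with a library left out. *Kdm3a* (Entrez 104263, chr6:71588970-71632990), known for its need in spermatogenesis, was at 327, 269, 316 and 362 CPM in d6PGCLCs and at 298, 259, 298 and 289 CPM in E12.5 PGCs. These values overlapped, since d6PGCLC replicate 2 lay below 3 of the E12.5 PGC libraries. The log2 fold change was 0.16 ± 0.09 (SE; edgeR quasi-likelihood test, adjusted p = 0.259), and 0.09 without d6PGCLC replicate 4. The share of *Kdm3b* in the summed RPKM of both genes was 56.5 ± 3.77% in d6PGCLCs and 50.4 ± 0.486% in E12.5 PGCs, and the ranges, 51.6 to 60.2% and 49.9 to 50.8%, were close but did not overlap. The sum itself was 124 ± 12.0 RPKM in d6PGCLCs and 97.8 ± 6.11 RPKM in E12.5 PGCs. The lowest d6PGCLC sum, 110.3 RPKM, was above the highest E12.5 PGC sum, 103 RPKM.

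The amine oxidases went different ways. *Kdm1a* (Entrez 99982, chr4:136550533-136602787) encodes LSD1, the catalytic subunit of the CoREST complex. It was at 427, 406, 359 and 380.4 CPM in d6PGCLCs and at 388, 360.0, 378 and 398 CPM in E12.5 PGCs. The groups lay across each other, and the log2 fold change was 0.05 ± 0.08 (SE; edgeR quasi-likelihood test, adjusted p = 0.883). *Kdm1b* (Entrez 218214, chr13:47043373-47085279) encodes LSD2, which is needed for maternal imprints in growing oocytes. It was at 83.9, 103, 82.1 and 92.0 CPM in d6PGCLCs and at 174, 127, 155 and 157 CPM in E12.5 PGCs. Replicate 2 was the highest d6PGCLC library and the lowest E12.5 PGC library, so the groups were nearest there without overlap. The log2 fold change was -0.76 ± 0.11 (SE; edgeR quasi-likelihood test, adjusted p = 6.90e-06), a level 1.70-fold lower in d6PGCLCs. Omitting single libraries moved it from -0.84 to -0.70. The share of *Kdm1b* in the summed RPKM with *Kdm1a* was 17.3 ± 1.55% in d6PGCLCs, from 15.2 to 18.7%, and 26.8 ± 1.91% in E12.5 PGCs, from 24.4 to 29.0%.

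*Kdm2a* (Entrez 225876, chr19:4316144-4398721) encodes a demethylase of H3K36 that binds unmethylated CpG islands. It was at 213, 169, 202 and 206 CPM in d6PGCLCs and at 275, 219.6, 254 and 251 CPM in E12.5 PGCs. The highest d6PGCLC library, replicate 1, was just below the lowest E12.5 PGC library, replicate 2. The log2 fold change of -0.34 ± 0.10 (SE; edgeR quasi-likelihood test, adjusted p = 0.00799) was the smallest change that passed among the 10 genes, and with a library left out the adjusted p reached 0.0327 at most. Over all 10 genes the summed level was 368 ± 24.1 RPKM in d6PGCLCs, from 340.2 to 397, and 322 ± 17.8 RPKM in E12.5 PGCs, from 296 to 336.

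A pair of libraries stood low for most of the 10 genes. d6PGCLC replicate 2 held the lowest value of its group for 8 of the 10 genes and E12.5 PGC replicate 2 for 9 of 10. Relative to their group means in log2, the median over the 10 genes was -0.22 and -0.13 in these libraries. Genes of the same length deviated in the same direction there, by -0.10 and -0.06 in a smooth fit on exonic length over all genes. Those values from the fit are relative to the mean over the libraries of both groups, not to the group means. Without both libraries all 8 calls were kept, with log2 fold changes of 3.99 for *Kdm6b*, 0.69 for *Kdm6a*, 1.11 for *Kdm4b* and -0.91 for *Kdm1b*. With the length trend as an offset, the 8 calls were kept as well.

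**Figure D4:**
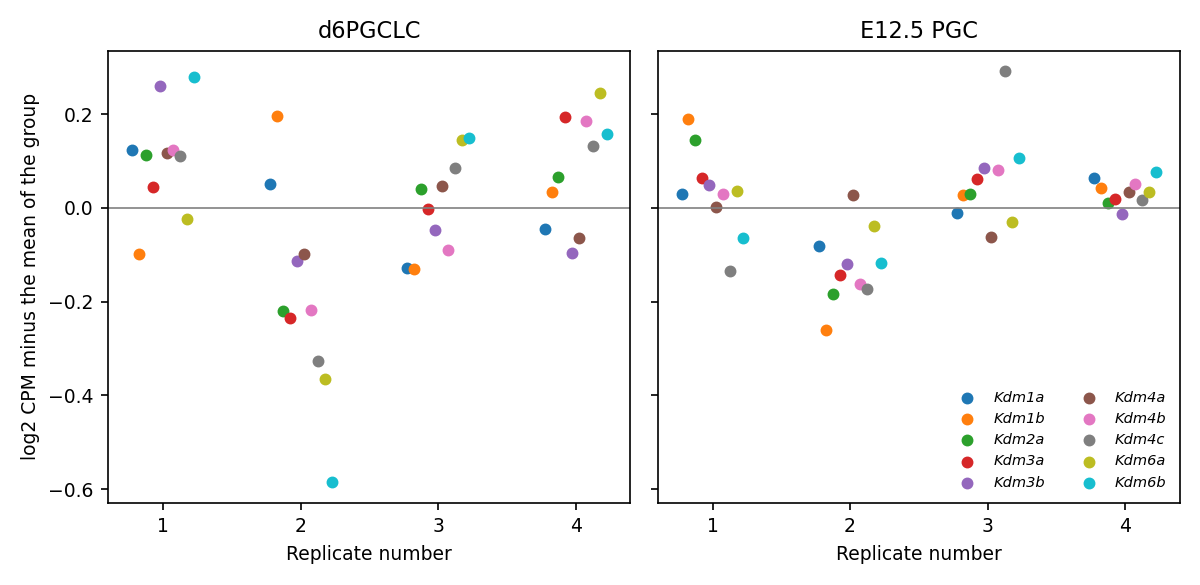
Deviation of each demethylase from its group mean (log2) in each of the 8 libraries, one coloured point per gene, by replicate number. Most genes lie below 0 in both libraries numbered 2, whose medians are -0.22 in d6PGCLCs and -0.13 in E12.5 PGCs.

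The other histone demethylases held no gene that rose. Of 9 listed genes that were in the table, 0 rose and 6 fell, with a median log2 fold change of -0.76. *Kdm2b*, the paralog of *Kdm2a* that recruits a Polycomb complex to CpG islands, had a log2 fold change of -0.95. *Phf8*, which acts on H3K9 and H4K20, had 29.6 ± 8.20 CPM in E12.5 PGCs and 13.8 ± 3.83 CPM in d6PGCLCs, with a log2 fold change of -1.09 (edgeR quasi-likelihood test, adjusted p = 0.000246). Its relative *Phf2* had a log2 fold change of -0.78 and *Kdm7a* one of -0.04, which did not pass (edgeR quasi-likelihood test, adjusted p = 1). *Jmjd1c*, a further gene of the KDM3 family, was at 105 ± 12.9 and 129 ± 11.2 CPM with overlapping groups. Its log2 fold change of -0.30 (edgeR quasi-likelihood test, adjusted p = 0.0324) no longer passed when any of 5 libraries was left out, d6PGCLC replicates 2 and 4 and E12.5 PGC replicates 1, 3 and 4, nor with the length offset, at -0.12. Together with the 10 genes, 6 of 19 demethylases rose and 8 fell, *Jmjd1c* included, against 28.1% and 25.6% of the 11487 genes.

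Partners of the enzymes were counted next. Of 13 listed partners of LSD1 and LSD2, 2 rose and 3 fell, with a median log2 fold change of 0.06, and 1 rose without E12.5 PGC replicate 3. Here and in the lists that follow, the shares over the 11487 genes to set beside such counts are 28.1% higher and 25.6% lower. Those shares cover genes with a mean of at least 1 CPM, which 10 of the 13 partners had. *Gfi1b*, 1 of the 2 that rose, had a mean of only 7.38 counts and was not among these 10. *Hmg20b*, a DNA-binding subunit of the CoREST complex, rose from 17.4 ± 4.32 to 43.0 ± 2.72 CPM. The deacetylases *Hdac1* and *Hdac2* had log2 fold changes of -0.62 and -0.51, and *Phf21a* of -0.46. The scaffold genes *Rcor1* and *Rcor2* had values of 0.16 and -0.04 and did not pass the test. Of 8 listed partners of UTX, 0 rose and 4 fell, with a median of -0.25. Of these, *Ncoa6* (edgeR quasi-likelihood test, log2 fold change -0.46, adjusted p = 0.0335) no longer passed when any of 5 libraries was left out. The H3K4 methyltransferase *Kmt2d* was lower, at 262 ± 25.1 CPM against 505 ± 59.3 CPM in E12.5 PGCs, or -0.95 in log2 (edgeR quasi-likelihood test, adjusted p = 9.61e-08). *Kmt2c* fell from 47.2 ± 16.2 to 17.4 ± 8.27 CPM, so that the methyltransferases of this complex were lower where *Kdm6a* was higher. With the length trend as an offset, *Kmt2d* was at -0.52 in log2.

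Enzymes that write the marks were counted beside those that remove them. Of 7 listed H3K9 methyltransferases, 0 rose and 4 fell, with a median log2 fold change of -0.47. *Setdb1*, a trimethylase of H3K9, had a log2 fold change of -0.78, *Ehmt1*, a dimethylase of H3K9, of -0.59, and *Suv39h1* of -0.47. Of the 4 listed genes of the H3K27 methyltransferase complex, 2 rose and 0 fell. These were *Suz12* and *Ezh2*, with log2 fold changes of 0.49 and 0.36, while *Eed* and *Ezh1*, at 0.20 and -0.19, did not pass the test. Without d6PGCLC replicate 1, 3 genes of the complex were called higher and 1 lower, and without E12.5 PGC replicate 2, 3 were called higher. Of 7 listed H3K36 methyltransferases, 1 rose and 4 fell, with a median of -0.45, and *Ash1l* had the lowest value, -1.13. The rise of *Nsd3* (edgeR quasi-likelihood test, log2 fold change 0.49, adjusted p = 0.0143) no longer passed without E12.5 PGC replicate 3 or 4.

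Genes known to respond to hypoxia or to dissociation were counted between the same groups. Of 15 listed hypoxia-inducible genes, 11 rose and 1 fell, with a median log2 fold change of 1.28, and their summed level was between 2524 and 3485 CPM in d6PGCLCs and between 893 and 959 CPM in E12.5 PGCs. *Ldha* and *Vegfa* were at 3.70 and 2.32 in log2 fold change. Among the 10 demethylases, *Kdm3a*, known as hypoxia-inducible, was at 0.16. The other JmjC genes of the 10 lay between -0.34 (*Kdm2a*) and 3.87 (*Kdm6b*). The 1 gene that fell, *Adm*, which has few counts, was not called without replicate 2 of either group. The 10 listed immediate early genes had 3 higher and 5 lower calls. Their summed level overlapped between the groups, from 541 to 673 CPM in d6PGCLCs and from 488 to 853 CPM in E12.5 PGCs. The highest sum was in E12.5 PGC replicate 2. Without that library, 3 of these genes were called lower. The part of these responses in the values of the 10 genes was not tested.

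The labels were checked against markers. Germ cell markers summed to between 4759 and 5404 CPM in d6PGCLCs and between 3410 and 3728 CPM in E12.5 PGCs over 11 of 11 genes. The later germ cell markers, 5 genes with *Dazl* and *Ddx4* among them, summed to between 58.2 and 134 CPM and between 1751 and 2540 CPM. Markers of gonadal somatic cells, 11 of 12 listed, summed to at most 8.73 CPM in d6PGCLCs and between 9.12 and 15.5 CPM in E12.5 PGCs, with 5 called lower in d6PGCLCs and 2 at 3 counts or fewer in every library. *Star* alone made up 5.71 ± 0.654 CPM of the sum in E12.5 PGCs and 6.91 ± 0.728 CPM in d6PGCLCs, and the other 10 genes summed to 6.54 ± 2.27 CPM in E12.5 PGCs and 1.18 ± 0.613 CPM in d6PGCLCs. Markers of blood and endothelium summed to between 7.15 and 17.8 CPM in d6PGCLCs and between 5.24 and 13.9 CPM in E12.5 PGCs. *Cdh5* alone made up 11.0 ± 4.13 and 4.18 ± 1.16 CPM of these sums. Markers of epiblast and mesoderm summed to between 5.50 and 6.47 CPM in d6PGCLCs and between 16.4 and 21.5 CPM in E12.5 PGCs. *Hand1* alone made up 0.548 ± 0.284 and 8.26 ± 1.32 CPM of these. The sums of the epiblast and mesoderm markers did not overlap, and 5 of 6 genes of that list were called lower in d6PGCLCs. The part of such cells in the difference of the demethylases was not tested.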

How the data were processed

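RNA of 4 d6PGCLC and 4 E12.5 PGC pools was sequenced as stranded poly(A) single-end libraries. The authors aligned the reads with STAR to GRCm38 (mm10), chose 1 isoform per gene at random, dropped genes at random where promoters overlapped, and deposited raw counts of uniquely mapped reads on its exons, with the exonic length of each gene beside them. Reads shared by near-identical genes were thereby lost. Whether strand was used in counting is not given in the sources used here, so genes with antisense transcripts are uncertain.

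Entrez identifiers were matched to RefSeq of GRCm38, which gave symbols for 21907 of 21950 genes. Counts were fitted in R 4.3.3 with edgeR 4.0.16 (TMM, glmQLFit and glmQLFTest, prior count 0.125, cell type as the only term, no filter), and p-values were adjusted over all genes (Benjamini-Hochberg). CPM and RPKM used TMM-scaled library sizes. Standard errors came from the quasi-likelihood fit. The steps were tested on simulated data. The alternatives tried were DESeq2 1.42.0, edgeR's likelihood ratio test, 3 further normalizations, 2 filters, a prior count of 2, a replicate block, an adjusted p of at most 0.01, glmTreat with a log2 threshold of 1, a length offset (loess, span 0.5), and leaving out each library; leaving out both libraries numbered 2 was chosen after seeing the data. limma 3.58.1 supplied functions to edgeR.

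Named were the 10 demethylases, some paralogs and markers, and up to 3 called genes of each list per direction. The latter had the largest change and a mean of at least 100 counts. Beyond these, *Rcor1*, *Rcor2*, *Gfi1b*, *Eed*, *Ezh1*, *Kdm7a*, *Adm*, *Star*, *Cdh5*, *Hand1*, *Sdhb*, *Sdhc* and *Sdhd* were named after their values were seen. Members and lists were chosen with earlier results of these data known. Listed genes outside the table were not analysed here. The planned comparison of protein sequences was not made. All pairs of libraries within a group differed by more than sampling noise, with a chi-square over its degrees of freedom between 3.35 and 22.1. With 3 counts as the limit of detection, the libraries reach between 0.249 and 0.375 CPM, a limit that covers counting error only, since the reads carry no molecular identifiers.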

Additional observations from a re-analysis of the deposited data

Results flagged for a closer look

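In 20 sets of 4 libraries (10 genes in each group) the highest or lowest library was compared with its neighbour by Dixon's criterion at 95%, where chance gives about 1. It was met for 2 sets. *Kdm3b* was at 676 CPM in d6PGCLC replicate 1, against 546 CPM in the next library, a gap of 0.842 of the range of that group. *Kdm4c* was at 21.9 CPM in d6PGCLC replicate 2, against 29.1 CPM in the next library, a gap of 0.885 of the range. With each library left out in turn, the log2 fold change was between 0.42 and 0.55 for *Kdm3b* and between 0.80 and 0.97 for *Kdm4c*, and both genes passed the test each time.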

How the results depend on the processing

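The 6 higher and 2 lower calls among the demethylases were the same under every alternative and with every library left out, except under glmTreat. So were the 2 called genes past an absolute log2 fold change of 1. The glmTreat test, with a log2 threshold of 1, asks for a larger change. It called 1 gene higher (*Kdm6b*, adjusted p = 1.88e-10) and 0 lower, and over all genes 858 higher and 674 lower. *Kdm4b* was still at 1.09 in log2 there but was not called (glmTreat, adjusted p = 0.641). With each library left out, between 3093 and 3636 genes of the table were higher and between 2885 and 3430 lower. The uncalled *Kdm1a* changed sign within its error, from 0.08 to -0.002 in log2. *Kdm3a* was not called under any of them, but with the length offset its log2 fold change was 0.20 and its adjusted p, 0.050006, lay at the threshold. The replicate numbers were used as a block as well, which kept all 8 calls and gave 3708 higher and 3562 lower genes. Same-numbered libraries of the groups deviated with correlations between -0.02 and 0.27, and differently numbered ones with correlations between -0.18 and 0.11. The highest value, 0.27, belonged to the libraries numbered 1. These values do not settle whether the numbers pair the libraries, and the main fit left them unpaired. Depth limits *Kdm6b* in E12.5 PGCs, with 21 to 32 counts per library.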

Other observations

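The JmjC enzymes use 2-oxoglutarate and are inhibited by succinate and fumarate. Of 14 listed genes of this metabolism in the table, 7 rose and 2 fell in d6PGCLCs, with a median log2 fold change of 0.29. The isocitrate dehydrogenase genes *Idh2* and *Idh3a*, whose enzymes make 2-oxoglutarate, rose by 0.80 and 0.74 in log2, from 166 ± 3.73 to 289 ± 28.3 CPM and from 72.7 ± 4.14 to 121 ± 11.6 CPM (SD, n = 4). *Glud1*, which makes it from glutamate, rose by 0.65. *Ogdh*, whose enzyme uses it up, had a log2 fold change of -0.53. *Sdha*, the other gene that fell (-0.27), no longer passed without d6PGCLC replicate 3 or 4 or without E12.5 PGC replicate 1, 3 or 4. Of the other listed subunits of succinate dehydrogenase, *Sdhd* rose by 0.35, while *Sdhb* (-0.002) and *Sdhc* (0.28) did not pass the test. These are transcript levels, and metabolites were not measured in these libraries.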
